A study of Mus musculus with 89 samples.

Results

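Heat shock proteins are chaperones that bind unfolded or partly folded proteins, and the 10 genes described here encode the heat-inducible and constitutive members most often followed in stressed tissue. They were taken by name, with earlier results of these data known, as every non-control probe whose transcript accession belongs to Hspa1a, Hspa1b, Hspa8, Dnajb1, Hsph1, Bag3, Hspb1, Hsp90aa1, Hspe1 or Hspd1. All 10 were measured, by 19 probes, among 22911 genes on the array. Total RNA of mouse lung was hybridised to 2-colour Agilent arrays, and 89 samples in 26 groups were analysed, each sample a pool of RNA from 2 mice.

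All mice were female BALB/c, 6-8 weeks old when obtained. All, controls included, had been sensitised with OVA/Alum (ovalbumin with an aluminium adjuvant), so the PBS groups were sensitised mice without allergen challenge and not untreated mice. They were challenged with PBS or with OVA, and given vehicle, core CuO or one of its 3 surface-modified forms by oropharyngeal aspiration on 4 consecutive days, with lungs taken 24 h after the last dose. CuO COOH is carboxylated, CuO NH3 methylaminated and CuO PEG carries polyethylene glycol. The daily doses were 2.5, 10 and 40 μg per mouse. They were matched by mass of material, and the copper content of that mass differs between coatings, so equal doses were not equal amounts of copper. PBS controls numbered 7 samples, OVA controls 8, CuO NH3 10 and CuO PEG 10 in PBS-challenged mice 4 each, and every other group 3. The number after a material is its dose, and "+ OVA" marks the OVA-challenged groups.

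The 89 samples lay on 46 arrays of 6 slides. Slides 1 to 3 carried the CuO and CuO COOH groups beside 3 PBS and 4 OVA controls, and slides 4 to 6 the CuO NH3 and CuO PEG groups beside 4 controls of each kind. The 2 slide sets were joined through these controls. The median foreground intensity was 77.5 in Cy3 and 90 in Cy5, with 0 saturated spots. Lung markers of the alveolar type 2 cell (Sftpc), alveolar type 1 cell (Ager), club cell (Scgb1a1) and endothelium (Pecam1) were well above background in all 89 samples. Nothing in the labels ties a pool to a cage or day, so p-values measure the spread between pools. Because lung was measured in bulk, fewer cells of a type and less RNA per cell cannot be told apart in any difference below.

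HSP70 proteins hold client proteins in an ATP cycle that J domain proteins such as Dnajb1 start and that nucleotide exchange factors such as Hsph1 and Bag3 complete. HSP90 takes over late folding steps of kinases and receptors, small heat shock proteins such as Hspb1 bind unfolded clients without ATP, and Hspd1 with its lid Hspe1 folds proteins inside mitochondria. In stressed cells heat shock factor 1 forms trimers that bind heat shock elements, inverted repeats of the unit GAA, in the promoters of many of these genes. Copper and other thiol-reactive metals are known inducers of this response.

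The bases upstream of the start site are shown for the inducible HSP70 pair, the exchange factor Hsph1, the small heat shock protein Hspb1 and the mitochondrial Hspe1, because their values below move in different ways. Each sequence is the 250 bases before a RefSeq start on the gene's strand, build GRCm38.p6, read 5′ to 3′. Capitals mark every match to GAANNTTC or TTCNNGAA, the arrangements of 2 inverted heat shock element units, each of which is its own reverse complement.
Hspa1a (chr17:34972157-34972406, minus strand): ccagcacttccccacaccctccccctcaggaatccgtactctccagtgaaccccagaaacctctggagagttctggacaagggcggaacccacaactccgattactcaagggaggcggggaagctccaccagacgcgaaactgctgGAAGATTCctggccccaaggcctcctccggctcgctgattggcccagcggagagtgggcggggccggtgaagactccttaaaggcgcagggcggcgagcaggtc
Hspa1b (chr17:34959239-34959488, minus strand): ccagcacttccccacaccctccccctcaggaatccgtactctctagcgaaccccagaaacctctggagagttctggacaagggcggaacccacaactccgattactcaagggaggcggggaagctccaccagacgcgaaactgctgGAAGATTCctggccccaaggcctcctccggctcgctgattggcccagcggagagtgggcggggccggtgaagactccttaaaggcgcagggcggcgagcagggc
Hsph1 (chr5:149636337-149636586, minus strand): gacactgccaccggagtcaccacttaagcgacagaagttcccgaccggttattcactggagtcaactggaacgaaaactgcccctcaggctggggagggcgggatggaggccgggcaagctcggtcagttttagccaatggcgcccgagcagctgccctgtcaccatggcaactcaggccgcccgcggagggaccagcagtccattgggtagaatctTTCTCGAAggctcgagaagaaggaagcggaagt
Hspb1 (chr5:135887669-135887918, plus strand): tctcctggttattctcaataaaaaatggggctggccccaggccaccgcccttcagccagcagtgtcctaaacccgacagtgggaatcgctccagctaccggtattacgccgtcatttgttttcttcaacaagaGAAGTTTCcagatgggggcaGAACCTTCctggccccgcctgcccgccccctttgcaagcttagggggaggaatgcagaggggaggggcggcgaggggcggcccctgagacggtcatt
Hspe1 (chr1:55087898-55088147, plus strand): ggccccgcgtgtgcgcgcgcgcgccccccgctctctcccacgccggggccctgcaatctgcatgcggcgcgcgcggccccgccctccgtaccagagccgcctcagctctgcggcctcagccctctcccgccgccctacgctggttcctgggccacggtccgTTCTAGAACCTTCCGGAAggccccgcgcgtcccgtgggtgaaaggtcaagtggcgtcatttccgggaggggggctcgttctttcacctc

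The Hspa1a and Hspa1b windows were identical at 247 of 250 bases (98.8%), and in both the match ends 96 bases before the start site. All distances here are counted from the end of a match. Hsph1 has 2 windows, of which the first is printed. Its match ends 25 bases before the start of that window and 46 before that of the second. It lies inside the RefSeq span of the gene given below. Hspb1 had 2 matches, the nearer at 89 bases. In Hspe1 3 overlapping matches, the nearest at 71 bases, formed 2 matches to the 3-unit letters TTCNNGAANNTTC or GAANNTTCNNGAA. Hspe1 and Hspd1 lie head to head on chromosome 1, and the same letters fell inside the second of the 2 windows of Hspd1, the nearest 126 bases before that start. At least 1 window held a 2-unit match in 6 of the 8 members with an entry, against 14.5% of 27025 genes, and a 3-unit match in 2 of 8, against 0.514%. These members are not independent sequences. Hspa1a and Hspa1b are near-identical here, and the 3-unit matches of Hspe1 and Hspd1 are the same bases. Dnajb1 and Bag3 had no match in these windows. Such a match describes the letters and is not a binding measurement.

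Of the genes, Hspa1a (chr17:34969359-34972156) and Hspa1b (chr17:34956429-34959238) are neighbouring copies of the stress-inducible HSP70, and 1 probe each was assigned to them. Because the transcripts are near-identical, how far each probe also binds the other copy was not tested. Hspa8 (chr9:40801276-40805202) is the constitutive HSP70 and had 4 probes. Dnajb1 (chr8:83608175-83612653), Bag3 (chr7:128523583-128546981) and Hspb1 (chr5:135887919-135889563) had 1 probe each, Hsp90aa1 (chr12:110691036-110696395) and Hspd1 (chr1:55077833-55088243) had 2, and Hsph1 (chr5:149616843-149636498) and Hspe1 (chr1:55088148-55091317) had 3. These spans are those of the RefSeq genes in GRCm38.p6, and probe positions within the transcripts were not used here. Of the 19 probes 17 were well above background in all 89 samples. The exceptions were 1 probe of Hsph1, in 31 samples, and 1 of Hspe1, in 73.

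Levels are given as normalized log2 intensity per gene with dye, slide and array position removed. They compare samples within a gene and not genes with each other. A change is a log2 fold change from limma with its standard error (SE). A gene is said to have risen or fallen where the Benjamini-Hochberg adjusted p over all 22911 genes was below 0.05 and the change above 1.5-fold (0.585 on the log2 scale). Dye and array were fixed terms in comparisons with controls, which leaves 17 residual degrees of freedom. A second fit treated the array as a random effect (the random-block fit). It kept the differences between arrays in use, and its counts are given beside the first because they differed by over 1.5 times.

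Hspa1a was the member with the widest range. Its group means ran from 8.91 ± 0.25 (SD, n = 3) after CuO PEG 2.5 to 13.56 ± 0.14 (SD, n = 3) after CuO 40, a span of 4.65, against an SD within groups of 0.54. In PBS controls its level ran from 9.22 over a median of 9.64 to 11.20 (n = 7). After core CuO the 3 samples measured 12.12, 13.38 and 12.47 at 2.5, then 12.65, 13.20 and 13.70 at 10, and 13.52, 13.72 and 13.45 at 40. All 9 lay above every PBS control. After CuO COOH they measured 12.27, 12.33 and 10.65 at 2.5, 12.31, 11.81 and 12.26 at 10, and 11.88, 11.74 and 12.10 at 40. Replicate 3 of CuO COOH 2.5 was low in Hspa1a, in Hspa1b and in most other members. After CuO NH3 the samples measured 12.70, 12.38 and 12.12 at 2.5, then 11.64, 11.13, 11.36 and 11.37 at 10, and 13.54, 12.73 and 13.57 at 40. CuO PEG gave 9.12, 8.64 and 8.96 at 2.5, all below every control, then 11.11, 12.10, 12.61 and 12.16 at 10 and 11.42, 10.90 and 11.44 at 40. Ordered by level, CuO 40 was followed by CuO NH3 40, CuO NH3 40 + OVA, CuO 10 and CuO 40 + OVA, with OVA controls, PBS controls and the 2 CuO PEG 2.5 groups near the bottom, and neighbours in that order differed by less than the SD within groups except at the step down to the CuO PEG 2.5 groups.

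**Figure D1:**
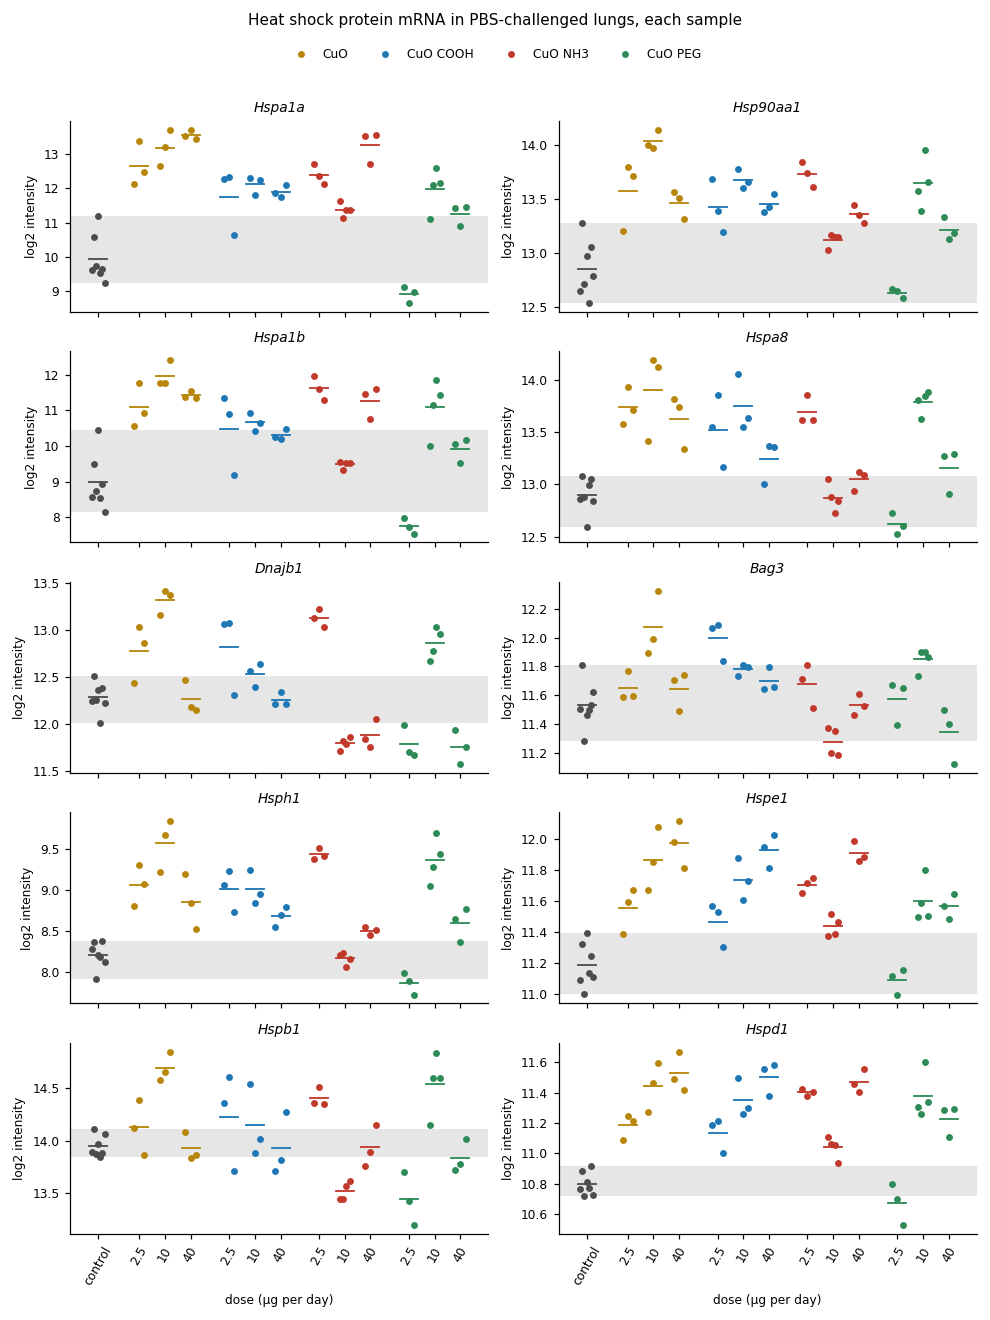
Normalized log2 intensity (y axis) of the 10 members in each sample of the PBS-challenged groups, by material and daily dose in μg per mouse (x axis), with PBS controls; points are samples, bars group means, and the grey band spans the controls. Hspa1a runs from 8.64 in CuO PEG 2.5 to 13.72 in CuO 40, while Bag3 stays between 11.12 and 12.33.

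In the fit with dye and array, Hspa1a rose in 7 of the 12 comparisons with PBS controls. The change was 3.31 (SE 0.78, adjusted p = 0.0374) after CuO 2.5, 4.26 (SE 0.91, adjusted p = 0.00732) after CuO 10 and 4.76 (SE 0.87, adjusted p = 0.000425, 27-fold) after CuO 40. It was 3.30 (adjusted p = 0.0487) after CuO COOH 10, 3.15 (adjusted p = 0.0145) after CuO COOH 40, 3.65 (SE 0.62, adjusted p = 9.11e-05) after CuO NH3 40 and 1.97 (SE 0.44, adjusted p = 0.0265) after CuO PEG 10. In the random-block fit it rose in 11 of 12, all but CuO PEG 2.5. The rises after CuO 10 and CuO NH3 40 kept their call without any single sample. The call after CuO 40 ended without CuO 40 replicate 2, with a change of 3.39, and that after CuO COOH 40 without PBS replicate 1, with 1.91. The calls after CuO 2.5 and CuO COOH 10 each ended without any of 7 samples, and that after CuO PEG 10 without any of 5. Over all removals the lowest changes in these 3 comparisons were 2.89, 2.41 and 1.31.

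Hspa1b, the neighbouring copy, had its highest group mean at a lower dose than Hspa1a with core CuO and CuO NH3 in PBS-challenged mice, and at the same dose, 10, with CuO COOH and CuO PEG. PBS controls ran from 8.15 over 8.75 to 10.46 (n = 7). After core CuO its samples measured 10.56, 11.76 and 10.93 at 2.5, then 11.76, 11.75 and 12.41 at 10 and 11.37, 11.55 and 11.35 at 40. All 9 were above the controls. CuO NH3 2.5 gave 11.95, 11.60 and 11.30, above the 9.55, 9.32, 9.53 and 9.53 of CuO NH3 10 and overlapping the 11.45, 10.75 and 11.59 of CuO NH3 40. In the fit with dye and array Hspa1b rose in 2 of 12 comparisons with PBS controls, by 3.14 (SE 1.04, adjusted p = 0.0384) after CuO 40 and by 2.59 (SE 0.73, adjusted p = 0.0104) after CuO NH3 40. The change of 3.6 after CuO 10 had an SE of 1.08 and an adjusted p of 0.0657. In the random-block fit it rose in 9 of 12. Without CuO 40 replicate 2 the CuO 40 change was 0.75 and not called, and the call also ended without PBS replicate 1 or 3. That after CuO NH3 40 ended without CuO NH3 40 replicate 1 or PBS replicate 5.

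The difference between the 2 copies within a sample varied with material and dose. This measure, Hspa1a minus Hspa1b log2 intensity, was added after the values had been seen, and it removes what both probes share. It was 0.949 ± 0.153 (SD, n = 7) in PBS controls and 0.608 ± 0.124 (SD, n = 8) in OVA controls, and was tested by an exact two-sided permutation test over samples in 24 comparisons with Benjamini-Hochberg adjustment over them. Exact means that all rearrangements were counted. Batch terms had been removed with the groups in the model, and exposed groups lay on other slides than part of their controls. Samples are therefore not fully exchangeable, and these p-values are approximate. In CuO 40 the difference was 2.14 (2.10 to 2.17), a gain of 1.19 (exact permutation p = 0.0167, the smallest 3 against 7 allow, adjusted p = 0.0267), and all 3 samples lay above all controls. CuO NH3 10, whose Hspa1b level overlapped the controls, gained 0.942 (exact permutation p = 0.00606, adjusted p = 0.0267), and CuO NH3 40 gained 1.06. Gains after CuO 2.5 (0.627), CuO COOH 10 (0.517), CuO COOH 40 (0.653) and CuO PEG 40 (0.391) had the same adjusted p. CuO 10 differed by 0.26 (exact permutation p = 0.10), CuO NH3 2.5 by -0.17 (exact permutation p = 0.167) and CuO PEG 10 by -0.06 (exact permutation p = 0.618), and these were the doses at which most members peaked with each of these materials. This did not hold elsewhere. CuO COOH 10, the peak of 5 members, gained 0.517, and CuO 10 + OVA, the peak of 7, gained 0.472. CuO COOH 2.5 (0.319, exact permutation p = 0.10) and CuO PEG 2.5 (0.209, exact permutation p = 0.217) did not pass either. Among OVA-challenged groups the gain was 1.45 after CuO 40, 1.14 after CuO COOH 40, 1.43 after CuO NH3 40 and 0.705 after CuO PEG 40, each at the smallest exact permutation p of 0.0121 (adjusted p = 0.0267). The same p was reached after CuO 2.5 (0.475), CuO 10 (0.472), CuO NH3 10 (0.833) and CuO PEG 2.5 (0.190) with OVA. The other 4 groups did not pass, CuO COOH 2.5 at -0.02 (exact permutation p = 0.836), CuO COOH 10 at 0.169 (exact permutation p = 0.097), CuO NH3 2.5 at 0.201 (exact permutation p = 0.109) and CuO PEG 10 at -0.20 (exact permutation p = 0.0606). A difference in how each probe responds near the top of its range was not tested.

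**Figure D2:**
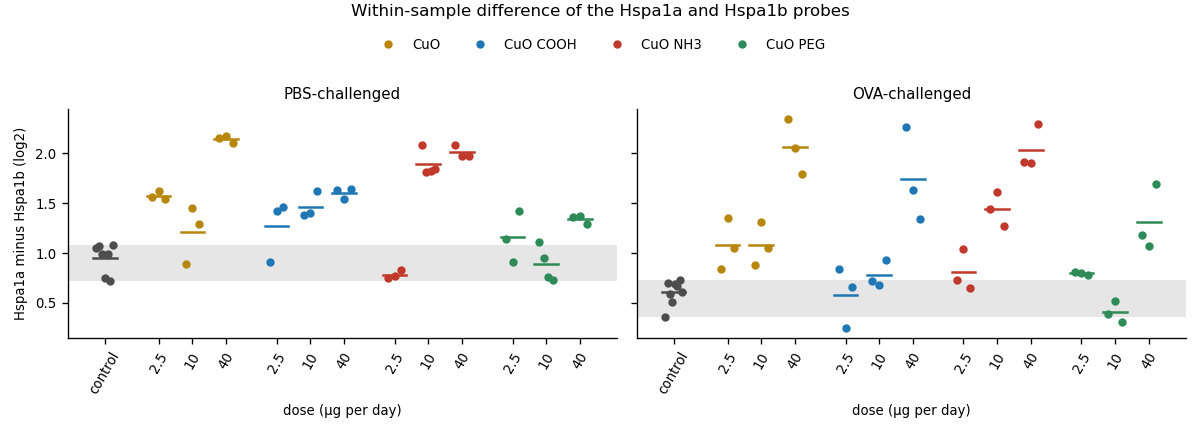
Hspa1a minus Hspa1b log2 intensity (y axis) in each of the 89 samples by group (x axis), points being samples, bars group means and the grey bands the range of the controls. PBS controls centre on 0.949 and OVA controls on 0.608, while CuO 40 reaches 2.14 and CuO PEG 10 stays at 0.890.

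Hspa8, the constitutive HSP70, moved less. PBS controls ran from 12.59 over 12.89 to 13.08, and core CuO gave 13.57, 13.93 and 13.71 at 2.5, 13.41, 14.19 and 14.12 at 10 and 13.81, 13.73 and 13.34 at 40, all above the controls. It rose by 1.52 (SE 0.36, adjusted p = 0.0161) after CuO 10, by 1.28 (SE 0.35, adjusted p = 0.0114) after CuO 40 and by 0.91 (SE 0.17, adjusted p = 0.00804) after CuO PEG 10, whose samples measured 13.81, 13.63, 13.84 and 13.88. The CuO 40 rise was 0.48 (adjusted p = 0.0365) in the random-block fit and so below 1.5-fold, and was not called without CuO 40 replicate 2. The CuO 10 call ended without any of 3 samples and the CuO PEG 10 call without any of 4. Its 4 probes rose in the same direction in CuO 10, by 1.42 to 1.59, each called.

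Among the co-chaperones, Hsph1, the HSP110 exchange factor of HSP70, had a span of 1.71 between its lowest and highest group mean. Its PBS controls lay between 7.92 and 8.37 with a median of 8.21. CuO 10 gave 9.22, 9.67 and 9.84, CuO NH3 2.5 gave 9.37, 9.52 and 9.41, and CuO PEG 10 gave 9.05, 9.29, 9.70 and 9.44, with no overlap with controls in any of them. CuO 40, at 9.19, 8.84 and 8.52, and CuO NH3 40, at 8.55, 8.45 and 8.5, were also above all controls but lower. Hsph1 rose by 1.69 (SE 0.44, adjusted p = 0.0279) after CuO 10 and by 1.12 (SE 0.21, adjusted p = 0.0065) after CuO PEG 10. In CuO NH3 2.5 the change was 1.24 (SE 0.35, adjusted p = 0.0875), and 1.42 (adjusted p = 1.42e-07) in the random-block fit. That fit called Hsph1 in 8 of 12 comparisons. The CuO 10 call ended without CuO 10 replicate 2 or 3 or PBS replicate 1 or 3, and the CuO PEG 10 call without CuO PEG 10 replicate 3 or PBS replicate 7. The 2 brighter Hsph1 probes changed by 2.30 and 2.25 after CuO 10 and the dim one by 0.53, so the mean of 3 probes understated the brighter pair.

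Dnajb1, the J domain partner of HSP70, was called in 0 of 12 comparisons with PBS controls and in 3 in the random-block fit. Its controls lay between 12.01 and 12.51. CuO 10, at 13.16, 13.42 and 13.37, and CuO NH3 2.5, at 13.12, 13.22 and 13.03, lay above them, whereas CuO 40, at 12.47, 12.18 and 12.14, overlapped them and all 4 samples of CuO NH3 10, at 11.71 to 11.86, lay below. In the random-block fit Dnajb1 rose by 0.82 (adjusted p = 0.00126) after CuO 10, 1.06 (adjusted p = 7.52e-05) after CuO NH3 2.5 and 0.68 (adjusted p = 0.00689) after CuO PEG 10. Bag3, which joins HSP70 to autophagy, was called in 0 comparisons by either fit and had the narrowest span, 0.98. Even so its 3 CuO 10 samples, at 11.89, 11.99 and 12.33, lay above the 11.28 to 11.81 of the controls, and its CuO 10 change was 0.74 (SE 0.24, adjusted p = 0.0988).

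Hspb1, the small heat shock protein HSP27, lay between 13.84 and 14.11 in PBS controls and was higher in CuO 10, at 14.58, 14.65 and 14.85, and in CuO PEG 10, at 14.15, 14.60, 14.84 and 14.60. Its CuO 10 change of 0.86 (SE 0.42, adjusted p = 0.367) was not called, but was 0.87 (adjusted p = 0.000479) in the random-block fit, its only call there. At CuO 40 it measured 14.09, 13.83 and 13.86 and overlapped the controls. Hsp90aa1, the stress-inducible cytosolic HSP90, ran from 12.53 over 12.79 to 13.28 in controls and reached 14.00, 13.97 and 14.14 in CuO 10 and 13.56, 13.51 and 13.31 in CuO 40. It rose by 1.6 (SE 0.38, adjusted p = 0.0149) after CuO 10 and by 1.06 (SE 0.36, adjusted p = 0.0457) after CuO 40, and in 8 of 12 comparisons in the random-block fit. Leaving out any of 6 samples ended the CuO 40 call, with the smallest change, 0.27, without CuO 40 replicate 2, and leaving out CuO 10 replicate 3 or PBS replicate 3 ended the CuO 10 call.

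The mitochondrial chaperonin genes behaved alike. Hspe1 had a median of 11.13 and a highest value of 11.39 in PBS controls, and Hspd1 lay between 10.72 and 10.92. After core CuO Hspe1 measured 11.38, 11.59 and 11.67 at 2.5, 11.67, 11.85 and 12.07 at 10, and 11.98, 12.11 and 11.81 at 40. Hspd1 measured 11.09, 11.25 and 11.22, then 11.27, 11.46 and 11.59, and then 11.49, 11.67 and 11.42 at the same doses. Both were above all controls at every dose except Hspe1 in 1 sample of CuO 2.5. Hspe1 rose by 1.00 (SE 0.21, adjusted p = 0.00702) after CuO 10, 1.09 (SE 0.20, adjusted p = 0.000472) after CuO 40, 0.75 (adjusted p = 0.0118) after CuO COOH 40 and 0.83 (adjusted p = 0.000116) after CuO NH3 40. Hspd1 rose by 1.03 (SE 0.21, adjusted p = 0.00445), 1.11 (SE 0.20, adjusted p = 0.000308), 0.69 (adjusted p = 0.0169) and 0.70 (adjusted p = 0.000543) in the same 4 comparisons. By single probe, Hspe1 after CuO COOH 40 was called in the dim probe (0.97) but not in the brighter ones (0.73 and 0.56). The brighter Hspd1 probe was not called after CuO COOH 40 (0.46) or CuO NH3 40 (0.49), while the dimmer was (0.92 and 0.91). After CuO 10 the brightest Hspe1 probe (0.86) was not called. All probes of both genes were called after CuO 40. Without CuO 40 replicate 2 neither gene was called after CuO 40 (0.57 and 0.63), and without PBS replicate 1 or CuO COOH 40 replicate 1 neither gene was called after CuO COOH 40. In the random-block fit, which carries no slide term, Hspe1 was at 1.46 after CuO 40 and 0.32 (adjusted p = 0.215) after CuO NH3 40, whereas Hspd1 kept 0.73 and 0.76.

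Counted over members, the comparisons with PBS controls called 1 after CuO 2.5, 6 after CuO 10 and 6 after CuO 40, against 0.899%, 3.59% and 14% of all genes. CuO COOH gave 0, 1 and 3 at the rising doses, against 0.358%, 3.6% and 10.2%. CuO NH3 gave 0, 0 and 4, against 0.96%, 3.28% and 13%, and CuO PEG 0, 3 and 0, against 0%, 0.41% and 2.23%. Every called member was higher than in controls. In the comparisons with 0 called members, those at an unadjusted p below 0.05 numbered 2 after CuO COOH 2.5, 8 after CuO NH3 2.5, 2 after CuO NH3 10, 1 after CuO PEG 2.5 and 3 after CuO PEG 40. Of all genes 6.61%, 12%, 18.3%, 4.39% and 13.4% were at that threshold, in the same order.

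Over 12 comparisons and 10 members the total was 24 calls in the fit with dye and array and 55 in the random-block fit. By dose in that second fit, core CuO called 5, 9 and 6 members, against 3.51%, 5.14% and 13% of all genes. CuO COOH called 5, 5 and 5, against 1.34%, 5.83% and 11.5%, CuO NH3 7, 1 and 3, against 2.08%, 4.03% and 12.8%, and CuO PEG 0, 7 and 2, against 0%, 0.755% and 3.61%. In both fits CuO PEG had its most calls at 10. CuO NH3 had most at 40 in the first fit and at 2.5 in the second. Leaving out 1 sample at a time moved the total of 24 to between 7 and 29, with 7 without CuO 40 replicate 2, when CuO 40 lost all 6 calls, and 15 without PBS replicate 1. Without CuO 10 replicate 3 or PBS replicate 3 the CuO 10 count was 3, and without CuO PEG 10 replicate 3 or PBS replicate 7 that of CuO PEG 10 was 0. The total of 55 moved to between 50 and 60.

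**Figure D3:**
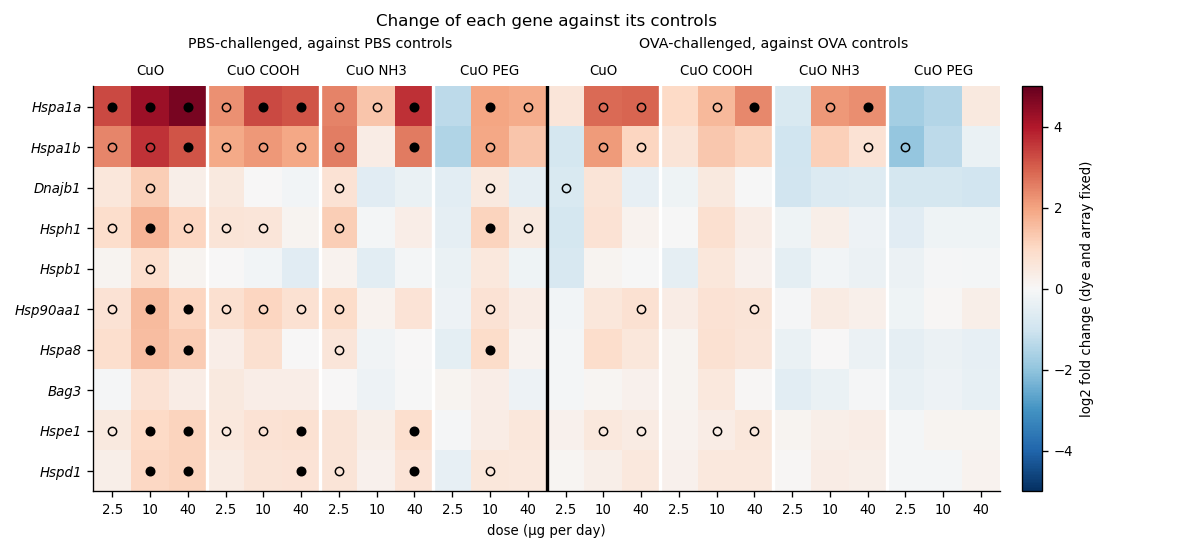
Log2 fold change of each member (rows) in each comparison with its controls (columns, by material and daily dose in μg per mouse), on a colour scale from -5 to 5; filled circles mark calls with dye and array fixed and open circles calls made only in the random-block fit. The PBS-challenged columns, left of the black line, hold 24 filled circles, 7 of them for Hspa1a, and the OVA-challenged columns 2.

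Sample by sample the separation from controls was wider than the calls. All samples lay above all 7 PBS controls for 10 of 10 members after CuO 10, for 9 after CuO NH3 2.5 and for 7 each after CuO 40 and CuO PEG 10, where 10.6%, 9.16%, 19.2% and 3.03% of all genes did so. After CuO 2.5 the number was 5, against 10.3%, and after CuO COOH 2.5, 10 and 40 it was 4, 6 and 5, against 5.96%, 13.7% and 18.1%. After CuO NH3 10, CuO NH3 40 and CuO PEG 40 it was 1, 6 and 2, against 10.8%, 19.1% and 10.5%, and 2 members after CuO NH3 10 and 1 after CuO PEG 40 lay entirely below the controls, against 8.67% and 9.54%. CuO PEG 2.5 had 0 members above and 4 (Hspa1a, Hspa1b, Dnajb1 and Hspb1) entirely below the controls, against 2.35% of all genes above and 2.61% below. Its changes were between -1.49 and 0.13, and 0 were called in either fit.

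In PBS-challenged mice members differed in the dose at which their mean was highest. With core CuO 7 members were highest at 10 and 3 (Hspa1a, Hspe1, Hspd1) at 40. With CuO NH3 the same 3 were highest at 40 and the other 7 at 2.5, with none at 10. CuO PEG had all 10 highest at 10, and CuO COOH 3 at 2.5, 5 at 10 and 2 (Hspe1, Hspd1) at 40. In OVA-challenged mice no member was highest at 2.5 with any material. There 7 were highest at 10 and 3 at 40 with core CuO, 6 and 4 with CuO COOH, 4 and 6 with CuO NH3, and 5 and 5 with CuO PEG. Steps between doses were tested with dye, slide and array position as terms. From 2.5 to 40 of CuO NH3, Dnajb1 fell by 1.24 (SE 0.19, adjusted p = 7.77e-07), Hsph1 by 0.93 (SE 0.20, adjusted p = 0.000221) and Hspa8 by 0.64 (adjusted p = 0.00348), against 7.19% of all genes called. From 2.5 to 40 of CuO PEG, Hspa1a rose by 2.35 (SE 0.50, adjusted p = 0.000889), Hspa1b by 2.16 (adjusted p = 0.00414) and Hsph1 by 0.73 (adjusted p = 0.0213), against 2.57%. The same step called 0 members for CuO (5.5% of genes) and CuO COOH (6.26%). At an unadjusted p below 0.05 were 3 and 4 members, against 29% and 29.4% of genes.

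The step from 10 to 40 was added after the values had been seen. Over it Dnajb1 fell by 1.05 (SE 0.20, adjusted p = 6.84e-05), Hspb1 by 0.77 (adjusted p = 0.0125) and Hsph1 by 0.73 (adjusted p = 0.00714) with core CuO, where 4.14% of genes were called, while Hspa1a changed by 0.38 and Hspe1 by 0.10. With CuO PEG Dnajb1 fell by 1.1 (SE 0.19, adjusted p = 0.00022), Hsph1 by 0.78 (adjusted p = 0.0129) and Hspa8 by 0.63 (adjusted p = 0.0229), against 1.33%. With CuO NH3 Hspa1a rose by 1.90 (SE 0.45, adjusted p = 0.00128) and Hspa1b by 1.78 (adjusted p = 0.00394), against 4.81%. CuO COOH had 0 called, against 1.75%, with 1 at an unadjusted p below 0.05, a threshold that 18.5% of genes passed. The 3 falls of Dnajb1, the rises of Hspa1a and Hspa1b and the CuO NH3 fall of Hsph1 kept their call without any single sample of the groups compared. Each of the other 6 step calls ended without at least 2 of those samples. With dye and array fixed, 1 of the 8 calls from 10 to 40 was left, Dnajb1 with core CuO (-0.90, adjusted p = 0.0318), and of the 6 from 2.5 to 40 those of Dnajb1 (-1.08) and Hsph1 (-0.91) with CuO NH3 and of Hspa1a with CuO PEG (3.15). In the random-block fit 4 members fell from 10 to 40 of core CuO, 2 rose with CuO NH3 and 0 were called with CuO COOH. With CuO PEG 1 fell, Dnajb1 (-0.92, adjusted p = 0.00559). From 2.5 to 40 that fit called 3 falls with CuO NH3, 3 rises with CuO PEG and 0 members with the other materials. Shares of all genes are not given here for these steps.

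At 40 μg the surface coatings were compared with core CuO, again with dye, slide and array position. CuO COOH shared slides with core CuO. CuO NH3 and CuO PEG lay on the other slide set, joined to core CuO only through the controls. In PBS-challenged mice Hspa1a was lower after CuO PEG than after CuO by 2.31 (95% CI -3.46 to -1.15, adjusted p = 0.00449), with its samples at 10.90 to 11.44 against 13.45 to 13.72. This call held without any of the 6 samples of these groups. The controls that join the slide sets were not left out in turn for it. Hspe1 differed by -0.40 (95% CI -0.66 to -0.14, adjusted p = 0.0289), below 1.5-fold. Against CuO COOH the Hspa1a difference was -1.66 (95% CI -2.62 to -0.69, adjusted p = 0.11), and against CuO NH3 -0.28 (95% CI -1.46 to 0.89, adjusted p = 0.965). These intervals leave room for large differences. For Hspe1 they were narrower, -0.26 to 0.17 for CuO COOH and -0.32 to 0.20 for CuO NH3. Members called numbered 0 for CuO COOH, 0 for CuO NH3 and 1 for CuO PEG, against 0.113%, 0.131% and 4.31% of genes. At an unadjusted p below 0.05 were 3, 1 and 6 members, against 12.7%, 7.9% and 24.7% of genes.

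In OVA-challenged mice 0 members were called in the 3 comparisons with core CuO at 40. Of all genes 0.371% (CuO COOH), 0.406% (CuO NH3) and 0.402% (CuO PEG) were called there. At an unadjusted p below 0.05 were 1, 1 and 4 members, against 11.5%, 13.2% and 11% of genes. The Hspa1a difference of CuO PEG was -2.27 there (95% CI -3.53 to -1.01, adjusted p = 0.0852). Over all 6 comparisons the count of calls went from 1 to 8 in the random-block fit, which carries no slide term. It went to 0 with dye and array fixed, and to 3 without CuO 40 + OVA replicate 2. Copper fractions of the materials differ, so these compare equal masses.

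OVA challenge without material moved few members. OVA controls ran from 10.00 over 10.57 to 11.74 in Hspa1a and from 9.31 over 10.14 to 11.08 in Hspa1b (n = 8), both overlapping PBS controls, and Hspb1 ran from 13.11 over 13.46 to 13.99, with 7 of 8 samples below all PBS controls. Against PBS controls 0 members were called, where 5.16% of all genes were. At an unadjusted p below 0.05 were 2 members, against 23.3% of all genes. In the random-block fit 1 member, Hspa1b, was called (1.14, adjusted p = 0.00363). Hspe1 differed by 0.51 (SE 0.12, adjusted p = 0.00597), under 1.5-fold, with all 8 OVA controls above all 7 PBS controls, and Hspd1 by 0.26 (adjusted p = 0.19) with the same separation, which 9.1% of all genes had.

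**Figure D4:**
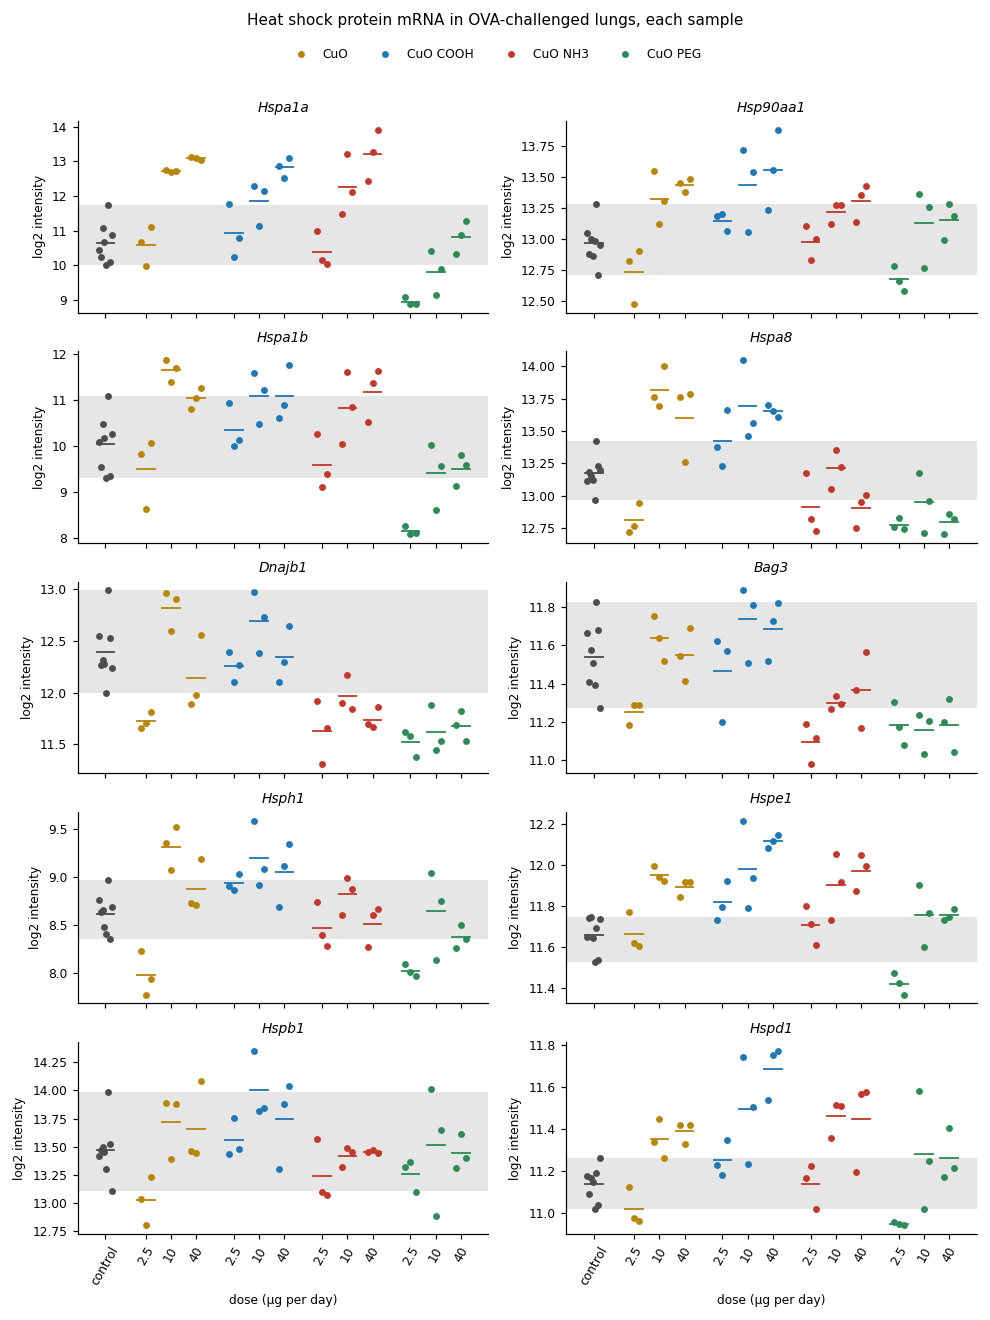
Normalized log2 intensity (y axis) of the 10 members in each sample of the OVA-challenged groups, by material and daily dose in μg per mouse (x axis), with OVA controls; points are samples, bars group means, and the grey band spans the controls. Hspa1a runs from 8.89 in CuO PEG 2.5 + OVA to 13.92 in CuO NH3 40 + OVA.

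Among OVA-challenged mice Hspa1a was again the member that moved furthest. After CuO 40 it measured 13.13, 13.09 and 13.05, after CuO COOH 40 it measured 12.87, 12.53 and 13.09, and CuO NH3 40 gave 12.43, 13.26 and 13.92, all above the 8 OVA controls. CuO PEG 40, at 10.31, 10.88 and 11.27, overlapped them, and CuO PEG 2.5, at 9.07, 8.89 and 8.89, lay below them all. At the lowest dose of core CuO the samples measured 10.68, 9.99 and 11.11, within or just under the range of the controls. Hspa1a rose against OVA controls by 2.41 (SE 0.61, adjusted p = 0.0188) after CuO COOH 40 and by 2.31 (SE 0.66, adjusted p = 0.039) after CuO NH3 40. After CuO 40 the change was 2.92 (SE 0.87, adjusted p = 0.0932), and 2.53 (adjusted p = 3.05e-06) in the random-block fit. The CuO NH3 40 call ended without any of 8 of the 11 samples, and the CuO COOH 40 call without its replicate 1 or OVA replicate 1.

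These were the only 2 calls against OVA controls over 12 comparisons and 10 members in the fit with dye and array. The shares of all genes called were 0%, 0.262% and 1.61% for CuO at 2.5, 10 and 40, 0.0349%, 0.663% and 3.78% for CuO COOH, 0.899%, 2.46% and 3.88% for CuO NH3 and 0.00436%, 0% and 0.572% for CuO PEG. Members at an unadjusted p below 0.05 numbered 0, 4 and 4 for CuO, 0, 8 and 5 for CuO COOH, 2, 3 and 2 for CuO NH3 and 4, 1 and 1 for CuO PEG. Of all genes 4.01%, 10.2% and 13.4% were at that threshold for CuO and 6.33%, 10.1% and 22.2% for CuO COOH. For CuO NH3 the shares were 14.8%, 18.5% and 19.9%, and for CuO PEG 7.77%, 5.63% and 12.9%. In the random-block fit 17 calls were made, 15 of them rises in Hspa1a (6), Hspa1b, Hsp90aa1 and Hspe1. By dose, core CuO called 1, 3 and 4 members, against 0.358%, 1.45% and 4.04% of all genes, and CuO COOH 0, 2 and 3, against 0.127%, 1.25% and 5.1%. CuO NH3 called 0, 1 and 2, against 1.72%, 1.81% and 6.04%, and CuO PEG 1, 0 and 0, against 0.0655%, 1.33% and 1.82%. The other two were falls, of Dnajb1 after CuO 2.5 (-0.75, adjusted p = 0.0327) and of Hspa1b after CuO PEG 2.5 (-1.74, adjusted p = 0.041). After CuO PEG 2.5 + OVA all samples lay below all OVA controls for 7 of 10 members, against 3.3% of all genes, and after CuO 10 + OVA all lay above for 6 of 10, against 4.28%.

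Whether exposure acted differently under the 2 challenges was tested by the interaction, the change against OVA controls minus the change against PBS controls. At 40 it called 0 members for all 4 materials. For CuO, CuO COOH, CuO NH3 and CuO PEG it called 1.11%, 1.14%, 1.58% and 0% of genes. At an unadjusted p below 0.05 were 2, 0, 2 and 0 members, against 9.24%, 9.57%, 12.8% and 4.89% of genes. The Hspa1a interaction was -1.84 (SE 0.97, adjusted p = 0.614) for CuO and -0.74 (SE 1.00, adjusted p = 0.913) for CuO COOH. Interactions at 2.5 and 10, added after the values had been seen, also called 0 members with dye and array fixed, against 0%, 0.00436%, 0.0262% and 0% of genes at 2.5 and 0%, 0.24%, 0.131% and 0% at 10 in the same order of materials. Members at an unadjusted p below 0.05 numbered 1, 0, 9 and 0 at 2.5 and 3, 0, 0 and 7 at 10. Of all genes 2.65%, 3%, 7.87% and 4.83% were at that threshold at 2.5 and 5.25%, 8.77%, 7.15% and 7.33% at 10.

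Still, in some groups at these doses samples of the 2 challenges stood apart, and the examples here were picked after their values were seen. Elsewhere samples overlapped. Hspa1a ran from 11.81 to 12.31 after CuO COOH 10 and from 11.15 to 12.30 after CuO COOH 10 + OVA. Dnajb1 measured 13.12, 13.22 and 13.03 after CuO NH3 2.5 and 11.92, 11.31 and 11.66 after CuO NH3 2.5 + OVA, although both control groups lay between 12.00 and 12.99. Its interaction was -1.69 (SE 0.37, adjusted p = 0.104), and -1.62 (SE 0.26, adjusted p = 0.000222) in the random-block fit. Hspa1b in the same groups measured 11.95, 11.60 and 11.30 and then 10.26, 9.12 and 9.39, with an interaction of -3.57 (SE 0.93, adjusted p = 0.201) and -3.15 (adjusted p = 0.000821) with the random block. After CuO PEG 10 Hspa1a measured 11.11, 12.10, 12.61 and 12.16 without allergen and 10.42, 9.14 and 9.89 with it, with an interaction of -3.42 (SE 0.84, adjusted p = 0.24) and -2.62 (adjusted p = 0.00883). The random block called 5 members at CuO 2.5, 6 at CuO NH3 2.5, 1 at CuO 10 and 4 at CuO PEG 10, where 1.01%, 0.89%, 0.842% and 0.384% of genes were called, and 0 in the other 8 interactions. The CuO 2.5 + OVA group was tied to the other groups through 1 array only in the fit with array as a fixed term, so its SEs there were large, 1.53 for Hspa1a.

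Members varied together over the 26 groups, a description since all share arrays and normalization. Pearson's r of group means over 45 pairs of members had a median of 0.732, from 0.073 (Hspb1 with Hspe1) to 0.94 (Hsph1 with Hspa8). Within groups, the deviations of the 89 samples from their group means had a median r of 0.603, from 0.231 (Bag3 with Hspe1) to 0.937 (Hspa1a with Hspa1b). Hspe1 with Hspd1 reached 0.923 over group means, while Dnajb1 had 0.879 with Bag3 and 0.166 with Hspe1. The non-members most like Hspa1b over the group means were the HSP90-associated Cacybp (r = 0.906) and Stip1 (0.875), and Abhd13 (0.871). Most like Hsph1 were the HSP90 co-chaperones Chordc1 (0.96) and Ahsa2 (0.914), with Mtmr4 (0.933) between them. Most like Hspe1 were Derl2 (0.96), which acts in endoplasmic reticulum-associated degradation, the CCT chaperonin subunit Cct8 (0.941) and Rhou (0.941).

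Other chaperone genes were counted by class, from lists written by hand, after CuO 40 in PBS-challenged mice, where 7.95% of all genes rose and 6.03% fell. Differences between classes were not tested. Of 11 genes of HSP90 and its co-chaperones 6 rose and 0 fell, led by Stip1 (1.56, adjusted p = 0.000861), which links HSP70 to HSP90, Fkbp5 (1.56, adjusted p = 0.00213) and St13 (1.14, adjusted p = 0.000553), with a list median of 0.76 against 0.01 over all genes. Of 8 CCT chaperonin subunits 6 rose, led by Cct3 (1.36, adjusted p = 0.000285), and of 15 endoplasmic reticulum chaperones 10 rose, led by Sdf2l1 (1.98, adjusted p = 3.57e-05), the collagen chaperone Serpinh1 (1.43) and Pdia4 (1.40), with a median of 1.02. In mitochondria 3 of 9 rose, Trap1 (0.83), Hspa9 (0.71) and Grpel1 (0.65). Of the remaining classes 0 of 5 heat shock factors and regulators were called, with Hsf1 at 0.19 (adjusted p = 0.704), and 0 of 7 further J domain proteins. Of further HSP70 and HSP110 genes 1 of 8 rose, Hspa4l (1.1), of BAG and related co-chaperones 1 of 10, Bag2 (0.77), and of small heat shock proteins 1 of 7 rose, Hspb8 (0.70), and 1 fell, Cryab (-0.67).

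The same lists were counted at CuO 10 and CuO PEG 10, where 2.59% and 0.38% of all genes rose. HSP90 and its co-chaperones had 5 of 11 higher after CuO 10, led by Stip1 (1.38, adjusted p = 0.0143), and 4 of 11 after CuO PEG 10, again led by Stip1 (0.89, adjusted p = 0.0036). Cacybp, Chordc1 and St13 were among the genes called in both, picked here after their values were seen. Endoplasmic reticulum chaperones had 6 and 3 of 15 higher, and CCT subunits 2 and 0 of 8. After CuO NH3 2.5, 0 of 11 of the HSP90 list and 2 of 15 of the endoplasmic reticulum list were called, where 0.86% of all genes rose. Of further HSP70 and HSP110 genes 1 of 8 was higher after CuO 10 and after CuO PEG 10, as after CuO 40, and heat shock factors and further J domain proteins had 0 called in these comparisons.

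Genes of metal and oxidative stress were counted beside the members, to be read against the shares of all genes above. After CuO 40, 7 of 9 rose and 1 fell, led by the metal-binding Mt2 (4.16, adjusted p = 2.25e-08) and Mt1 (2.62, adjusted p = 2.12e-08) and by Hmox1 (3.98, adjusted p = 2.89e-08), which degrades haem, while the zinc exporter Slc30a1 was lower (-0.59). After CuO 10, 6 of 9 rose, after CuO NH3 2.5, 4 of 9, and after CuO PEG 10, 0 of 9, at a list mean of 10.09 (9.94 to 10.31) against 9.97 (9.76 to 10.15) in PBS controls. After CuO PEG 40, where 1.73% of all genes rose, and in OVA against PBS controls, where 3.7% did, 4 of 9 were higher. With dye and array fixed 0 heat shock members were called in either. The random-block fit called 2 members after CuO PEG 40, against 3.61% of all genes, and 1 in OVA against PBS controls. The part of metal and oxidative stress in the members' changes was not tested. Mitotic genes rose in 12 of 12 after CuO 10 and CuO 40 and in 7 of 12 after CuO NH3 2.5 and CuO PEG 10. They also rose in 12 of 12 after CuO COOH 40, CuO NH3 40 and CuO PEG 40 and in OVA against PBS controls. After CuO 40 + OVA 4 of 12 rose against OVA controls. Of clock output and cold-inducible genes 8 of 15 fell and 1 rose after CuO 40, with Dbp at -3.18, Hlf at -2.13 and Cirbp, a cold-inducible RNA-binding protein, at -2.02 (adjusted p = 0.00015). Cirbp was the 1 gene of this list called after CuO 10 (-1.65, adjusted p = 0.00674) and after CuO PEG 10 (-0.97, adjusted p = 0.00351), singled out after its values were seen.

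Cell type markers also differed from PBS controls. After CuO 40, 7 of 11 neutrophil genes rose and 1 fell, led by Ltf (3.67) and Il1r2 (3.54), and the list mean per sample was 10.51 to 10.91 against 9.49 to 9.76 in PBS controls. Of endothelial genes 5 of 7 fell, led by Kdr (-1.68), at 11.90 to 12.01 against 12.48 to 13.03, and of erythrocyte genes 3 of 5 fell, led by Hbb-bt (-3.74), at 9.37 to 9.84 against 11.33 to 11.88. T cell (4 of 7), B cell (3 of 6), eosinophil (3 of 7) and alveolar macrophage (3 of 8) genes also fell. In CuO 10 neutrophil genes had 2 of 11 higher, at 9.79 to 10.13, and endothelial genes 1 of 7 lower, at 12.32 to 12.34. In CuO PEG 10 0 of 11 neutrophil and 0 of 7 endothelial genes were called, at 9.54 to 10.06 and 12.61 to 12.84, both overlapping the controls, where 0.41% of all genes were called. After CuO PEG 40, 1 of 11 neutrophil genes rose and 0 of 7 endothelial, 7 T cell, 6 B cell and 5 erythrocyte genes were called, with the neutrophil mean at 9.90 to 10.02 and the endothelial mean at 12.38 to 12.45. The part of these shifts in the members' changes was not tested.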

How the data were processed

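Lung RNA from 89 pools of 2 mice was hybridised in 2 dyes to Agilent mouse 8x60K arrays, and per the file headers the authors scanned and extracted them with Feature Extraction 12.0.2.2 (array design build mm9). The deposited files hold median foreground intensity per spot, not normalized, and the deposited value table holds log2 intensity of the same arrays. The authors' table had a Spearman correlation with the normalized own channel of each sample of 1 after rounding at the lowest. It was used only as an alternative. From the deposited intensity the own channel of each sample was taken as log2, quantile normalized over 89 samples without background subtraction, with outlier-flagged spots left out, and averaged over spots, probes and genes. Accessions were matched to RefSeq symbols, which named 32994 of 56605 probes (22911 genes).

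Tests used limma 3.58.1 in R 4.3.3 on the log2 scale over all genes with Benjamini-Hochberg adjustment, with calls at 0.05 and 1.5-fold. Comparisons with controls and interactions had dye and array as fixed terms, and comparisons between materials and doses had dye, slide and array position. Random-block fits used an estimated correlation of 0.236 between samples of an array and carried no slide term. Exact permutation tests used scipy 1.17.1. The scripts were tested on simulated data. Depth has no counterpart on arrays, and the number of pools limits the precision (median SE 0.1 to 0.28).

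The members and lists were chosen with earlier results of these data known. All 10 members were named by role. Of every other list at most 3 rising and 3 falling genes after CuO 40 were named, with the 3 genes most like Hspa1b, Hsph1 and Hspe1. Alternatives were normexp background correction, loess with Aquantile, a filter on dim probes, the value table, other batch terms, the replicate number as a block, same-slide controls, single probes and leaving out each sample. Interactions at 2.5 and 10, steps from 10 to 40 and the Hspa1a minus Hspa1b difference were added after seeing the data.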

Additional observations from a re-analysis of the deposited data

Results flagged for a closer look

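Of 40 member and group combinations with 4 to 10 samples, 3 held a sample far from the others, where chance flags about 1 in 20. Hspb1 in OVA control replicate 6 measured 13.99, against 13.11 to 13.52 in the other 7. Hspa1b in CuO NH3 10 replicate 2 measured 9.32, against 9.53 to 9.55, and Hsp90aa1 in CuO NH3 10 replicate 1 measured 13.03, against 13.15 to 13.17, so the last 2 gaps were small on the log2 scale.

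With the array as a random block, the change against OVA controls was lower than that against PBS controls for 16 member and dose combinations, none of which was called with dye and array fixed. After CuO 2.5 the limma interaction was -2.42 for Hspa1a, -2.3 for Hspa1b, -0.99 for Dnajb1, -1.21 for Hsph1 and -1 for Hspa8. After CuO NH3 2.5 it was -2.77 for Hspa1a, -3.15 for Hspa1b, -1.62 for Dnajb1, -1.37 for Hsph1, -0.87 for Hsp90aa1 and -1.04 for Hspa8. After CuO 10 it was -1.01 for Hsp90aa1, and after CuO PEG 10 it was -2.62 for Hspa1a, -2.52 for Hspa1b, -1.21 for Dnajb1 and -0.98 for Hsph1. Why the 2 fits differ in these calls was not tested.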

How the results depend on the processing

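Of 457 single-member values under the alternatives, 64 kept their direction but not their call and 1 reversed, Hspe1 after CuO NH3 40, at -0.28 with the replicate block. Normexp, loess with Aquantile, the dim-probe filter and the deposited table kept direction and call in 41 of 41 each. The deposited table ranks the spots of a sample as the main values do, so its result is not an independent check. Other batch terms, a random block for array and a replicate block gave 49, 55 and 66 calls against PBS controls in place of 24, and 13, 17 and 14 against OVA controls in place of 2. In the same order they gave 1, 1 and 2 for OVA against PBS controls, 5, 5 and 6 for CuO COOH 40, 1, 2 and 4 for CuO PEG 40, 1, 4 and 1 for CuO 40 + OVA, 2, 3 and 2 for CuO COOH 40 + OVA, and 2, 2 and 2 for CuO NH3 40 + OVA. For the 6 comparisons with core CuO they gave 0, 8 and 8, and for interactions at 2.5 and 10 (added) 21, 16 and 21. Other batch terms gave 1 for CuO PEG 40 + OVA and 1 for the added steps from 10 to 40. The replicate block gave 1 for CuO PEG 40 + OVA and 1 for interactions at 40. Same-slide controls gave 1 for CuO 40 + OVA and 0 for CuO NH3 40 + OVA. The random block also called more of all genes in most comparisons with PBS controls, as after CuO 2.5 (3.51% against 0.899%). It called fewer after CuO 40 (13% against 14%) and CuO NH3 40 (12.8% against 13%). Shares of all genes are not given here for the other alternatives, so these counts are not read as results about the members. The cause of the different counts was not tested.

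Leaving out 1 sample at a time gave 7 to 29 calls against PBS controls, 1 to 5 against OVA controls, 0 to 1 for OVA against PBS controls, 0 to 7 for CuO 40, 0 to 3 for CuO COOH 40, 0 to 2 for CuO COOH 40 + OVA, 0 to 1 for CuO NH3 40 + OVA, up to 3 for the comparisons with core CuO, and 0 to 1 for interactions at 40 and for those at 2.5 and 10. With the random block these last were 11 to 22, with 50 to 60 calls against PBS and 13 to 23 against OVA controls. CuO 2.5 + OVA could not be compared without either of 2 samples. Same-numbered samples of different groups had a median r of 0.053 (37.7% above 0.1), against -0.022 (19.9% above 0.1) for others. Replicate numbers mostly followed the slides within each slide set, so the replicate block overlaps with slide. Whether the number also pairs samples was not tested.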
